A study of Mus musculus with 24 samples.

Results

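Anti-PD-1 was set against control IgG in CD11c-selected cells of Myd88 knockout mice, with 3 libraries in each group, 6 of the 24 libraries of the series. The members were taken by their labels (knockout genotype with anti-PD-1 or with IgG), and every listed gene was read in all 6 libraries. The cells were isolated with CD11c magnetic beads from the mesenteric lymph nodes of C57BL/6 mice bearing subcutaneous tumours of MC38, a mouse colon carcinoma line, seeded with 1000000 cells. The mice are described as female and 6 to 8 weeks old. Both groups lacked Myd88 according to their labels, carried the tumour, and received 200 μg of antibody per mouse into the peritoneum at each injection, starting at a tumour size of about 100 mm3, reached 7 to 10 days after seeding, and continuing for 2 to 3 weeks. The anti-PD-1 group received the antibody to PD-1 and the IgG group its control antibody. The wild-type anti-PD-1 and IgG libraries, 3 each, and the knockout libraries given the oral bacterium LGG with anti-PD-1 or LGG alone, 3 each, are used only for comparison. The knockout is not described as limited to any cell type, and nothing states that the 3 libraries of a group came from separate animals, so the p-values measure the spread between these libraries, which may be technical.

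PD-1 is an inhibitory receptor of activated T cells, and its ligands, encoded by Cd274 and Pdcd1lg2, are carried by dendritic cells, macrophages and tumour cells. Dendritic cells take up antigen, travel to lymph nodes and prime T cells, and they carry receptors for the Fc part of antibodies. Myd88 is the adaptor through which most Toll-like receptors and the receptors for interleukin-1, interleukin-18 and interleukin-33 activate NF-kB. In its absence signals from microbes still pass through the adaptor Trif and through nucleic acid sensors.

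Values are read counts per gene divided by a factor for each library (normalised read counts). The 6 libraries held 27762574 to 49272593 reads over the listed genes. The anti-PD-1 libraries differed among themselves far more than the IgG libraries. The median standard deviation per gene on the log2 scale was 0.38 over the 3 anti-PD-1 libraries, against 0.118 over the 3 IgG libraries, and 0.0712 to 0.273 in the other groups of the series. Anti-PD-1 replicates 2 and 3 lay farthest apart, with a root mean square log2 difference of 1.13 over all genes, against 0.307 to 0.372 between IgG libraries. The group mean nearest to each anti-PD-1 library was nevertheless that of knockout IgG, at 0.387, 0.518 and 0.861 for replicates 1, 2 and 3. The Myd88 transcript stood at 1459, 884 and 1837 normalised reads in the anti-PD-1 libraries and at 1327, 1350 and 1136 in the IgG libraries. It averaged 1907 ± 104 in wild-type anti-PD-1 cells and 1900 ± 109 in wild-type IgG cells (SD, n = 3 each), so the transcript was not absent under the knockout label. The part of the gene that was deleted is not given in the labels, so a count over the whole gene does not check it. The Y-linked gene Ddx3y, an RNA helicase, had 1500, 2051 and 1520 normalised reads in the knockout anti-PD-1 libraries and 1482, 1527 and 1853 in the knockout IgG libraries. Its means in wild type were 1.73 with anti-PD-1 and 1.42 with IgG, so the knockout libraries go against the label of female mice and, between the genotypes, sex and the Myd88 genotype cannot be told apart.

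The selected cells expressed Itgax, which encodes CD11c, at 33060 to 37830 normalised reads in the 6 libraries, and the class II gene H2-Ab1 at 26870 to 54950. The dendritic cell transcription factor gene Zbtb46 was low, at 192 to 224, and the receptor gene Flt3 of conventional dendritic cells lower still, at 5.84 to 33.3. All 22 markers of macrophages and monocytes were measured, and their most abundant member, the lysozyme gene Lyz2, had 220000 to 365600 normalised reads. The chitinase-like gene Chil3, made by alternatively activated macrophages, took the most reads in every one of the 6 libraries, at 4.57% to 6.37%. Itgax and class II were thus abundant, while Zbtb46 and Flt3 were scarce beside Lyz2 and Chil3. The macrophage and monocyte markers ranged widely, with Csf1r at 15630 to 18130, Maf at 202 to 254, Cd163 at 12.6 to 39.6 and Cx3cr1 at 1.96 to 9.19. Other genes listed for conventional dendritic cells varied, with P2ry14 at 2088 to 4097, Ccr7 at 1497 to 3111 and Btla at 0 to 7.01. These levels do not by themselves check the label of CD11c+ dendritic cells. In bulk samples, fewer cells of a type and less RNA per cell cannot be told apart, and this holds for every marker below.

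No gene passed the test between anti-PD-1 and IgG in the knockout cells. With limma on the 6 libraries, 0 of 12749 genes had an adjusted p below 0.05 (0%), while 368 had an unadjusted p below that value (2.89%), 241 of them higher (1.89%) and 127 lower (0.996%) with anti-PD-1. On the whole reads edgeR called 0 genes and DESeq2 called 17, of which 1 was higher and 16 lower. In wild-type cells the same test called 1760 genes (13.8%), 908 higher (7.12%) and 852 lower (6.68%). That contrast depended on the fit, since with all 24 libraries sharing 1 spread limma called 229 genes in knockout and 4 in wild type, and the wild-type count ran from 279 to 3233 with 1 library left out. With 3 libraries against 3, an exact two-sided permutation test of 1 gene cannot go below 0.1.

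The genes that moved the same way in all 3 anti-PD-1 libraries were therefore counted without a p-value. All 3 anti-PD-1 libraries lay above every IgG library for 749 genes (5.87%) and below every IgG library for 598 (4.69%), 1347 genes together (10.6%). In wild type such gaps were found for 2136 genes higher (16.8%) and 2078 lower (16.3%). Another rule asked each anti-PD-1 library to stand at least 1.5-fold from the IgG mean in the same direction. It found 142 genes higher (1.11%), whose median level was 8.15 normalised reads and of which 114 also lay above every IgG library. It found 32 genes lower (0.251%), whose median level was 50.7, and all 32 also lay below every IgG library. Leaving out anti-PD-1 replicate 2 raised the count of genes without overlap to 7333, and leaving out replicate 1 raised it to 2582. Fewer libraries make such gaps more frequent. Leaving out replicate 3 gave 1914, and leaving out 1 IgG library at a time gave 1761 to 1920.

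The genes shared between the genotypes ran mostly in opposite directions. Of the 749 genes above IgG in all 3 knockout anti-PD-1 libraries, 244 (32.6%) lay below IgG in all 3 wild-type anti-PD-1 libraries and 53 (7.08%) lay above. Of the 598 genes below IgG in knockout, 193 (32.3%) lay above IgG in wild type and 53 (8.86%) below. The 244 genes were 11.7% of those lower in wild type and the 193 were 9.04% of those higher there. The 2 comparisons share no library. The genes above IgG in knockout had a median GC content of 54.6%, those below 46.2% and all genes 49.8%. Across genes, the difference from the group's IgG mean correlated with GC content at r = 0.188, -0.0273 and 0.283 in the knockout anti-PD-1 libraries and at -0.175, -0.335 and -0.42 in the wild-type ones. Genes are not independent replicates, and these values are descriptions. After a trend with exon length and GC content was removed from each library, 922 genes lay above IgG and 570 below in knockout. Of the 922 genes 217 ran opposite in wild type and 117 alike, and of the 570 genes 91 ran opposite and 59 alike. The excess of opposite pairs was smaller than before, on lists of other sizes. The part of length and GC content in the opposite directions was not tested.

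The 3 anti-PD-1 libraries parted along gene length. Genes were put into 5 equal bins by summed exon length. In replicate 1 the bin of the shortest genes lay above the IgG mean by a median of 0.22 log2 units and that of the longest lay at -0.14. Replicate 3 ran the same way and further, at 0.55 for the shortest and -0.21 for the longest genes. Replicate 2 ran in reverse, at -0.35 for the shortest and 0.35 for the longest. The IgG libraries, each set against the mean of the other IgG libraries, spanned -0.17 to 0.15 over the same bins. The share of genes at least 2-fold from the IgG mean was 3.07%, 5.73% and 18.5% in replicates 1, 2 and 3.

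**Figure D1:**
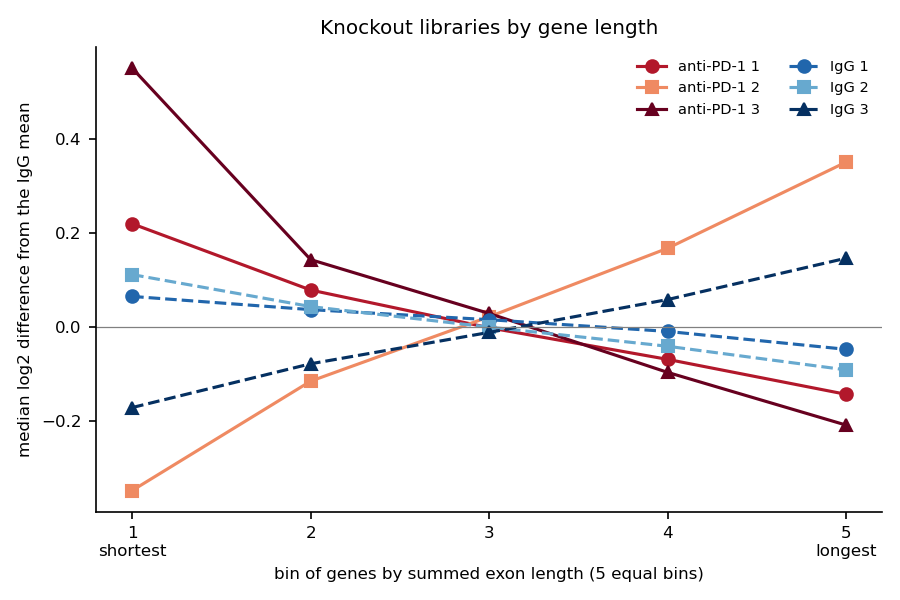
Median log2 difference from the knockout IgG mean (vertical axis) in 5 equal bins of genes ordered by summed exon length (horizontal axis), 1 line for each of the 3 anti-PD-1 (solid) and 3 IgG (dashed) libraries. Each IgG library is set against the mean of the other IgG libraries. Anti-PD-1 replicate 3 reaches 0.55 in the shortest bin, where replicate 2 is at -0.35, and the order is turned round in the longest bin.

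Several housekeeping gene lists were split between the same libraries. The 27 ribosomal protein genes of the list took 4.09%, 2.32% and 6.4% of the normalised reads in anti-PD-1 replicates 1, 2 and 3, against 3.17%, 3.45% and 2.97% in IgG replicates 1, 2 and 3. All 27 lay above the IgG mean in replicates 1 and 3 and 0 of 27 in replicate 2. Rpsa, a component of the small subunit, had 106700, 47330 and 276000 normalised reads with anti-PD-1 and 67030, 75080 and 59770 with IgG. Nuclear genes of oxidative phosphorylation and genes of the constitutive proteasome were split the same way, with medians of 0.22, -0.47 and 0.57 (26 genes) and of 0.22, -0.43 and 0.63 (25 genes) in replicates 1, 2 and 3. Transcripts of the mitochondrial genome took 1.5%, 1.84% and 0.431% of reads with anti-PD-1 and 1.8%, 1.33% and 2.02% with IgG, so replicate 3 was low in them. Reads of ribosomal protein genes can be shared with their processed pseudogenes, and their levels are uncertain for that reason.

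The 10 genes with the widest range among the anti-PD-1 libraries all peaked in replicate 2 and were lowest in replicate 3. Tlr8, an endosomal receptor for single-stranded RNA that signals through Myd88, had 202, 1410 and 13.8 normalised reads with anti-PD-1 and 538, 478 and 927 with IgG. Vcl, which encodes the focal adhesion protein vinculin, had 147, 1354 and 28.7 with anti-PD-1 and 404, 310 and 678 with IgG. Med12, a subunit of the mediator complex, had 552, 2756 and 85 with anti-PD-1 and 969, 886 and 1367 with IgG. The highest anti-PD-1 library exceeded the lowest 102-fold for Tlr8, 47.1-fold for Vcl and 32.4-fold for Med12, while the IgG libraries differed 1.94-fold, 2.19-fold and 1.54-fold. The other 7 genes were Tm4sf19, Slfn9, Arhgef11, Tbc1d8b, Tstd2, Map3k15 and Smap1, with ratios of 33 to 63 among the anti-PD-1 libraries.

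**Figure D2:**
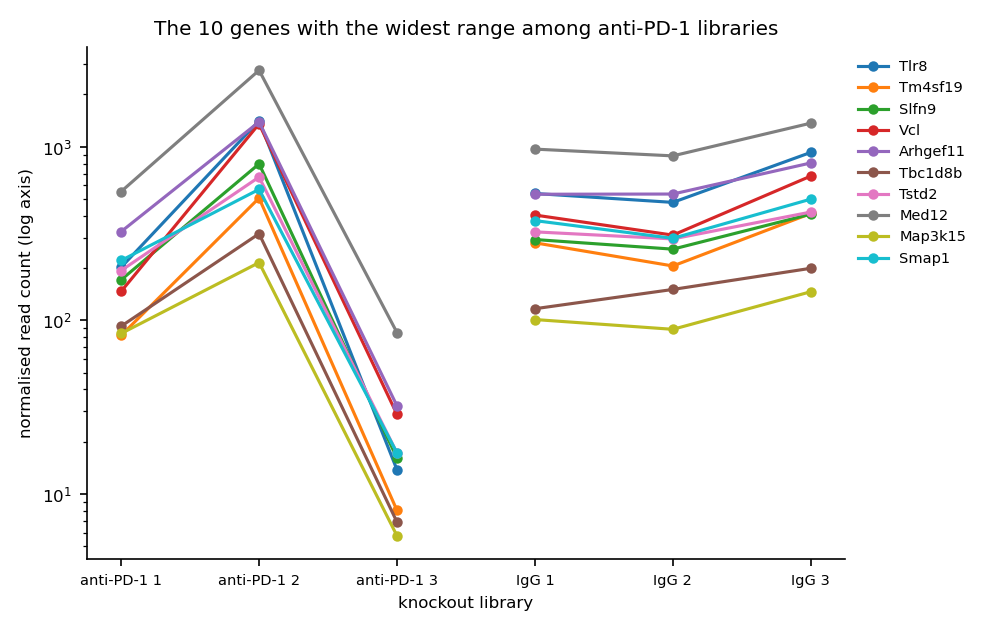
Normalised read counts on a log axis of the 10 genes with the widest range among the knockout anti-PD-1 libraries, with the 3 anti-PD-1 libraries left and the 3 IgG libraries right; each line joins the values of 1 gene within a group. Every gene is highest in anti-PD-1 replicate 2 and lowest in replicate 3, while the IgG libraries lie within a ratio of 2.19.

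Against this spread, a set of genes was far below IgG in each anti-PD-1 library. The 12 with the widest gap between the highest anti-PD-1 and the lowest IgG library were chosen by that gap, so their differences are described and not tested anew. Serpinb9b, a relative of the granzyme inhibitor Serpinb9, led them (ENSMUSG00000021403, GRCm38 chromosome 13, 33027416 to 33041884). It had 111, 83.2 and 65.5 normalised reads in the anti-PD-1 libraries and 431, 415 and 461 in the IgG libraries. The highest anti-PD-1 library exceeded the lowest 1.69-fold, against 1.11-fold among the IgG libraries. The mean difference was -2.35 ± 0.22 on the log2 scale (SE, unadjusted p = 2.32e-05, adjusted p = 0.296, limma). Serpinb9b lies among closely related genes, and how reads shared between them were counted is not stated. Serpinb9 itself, named after its value was seen, differed by -0.48 ± 0.14, also below IgG in all 3 libraries (adjusted p = 0.952, limma).

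Il33, which encodes the alarmin interleukin-33 whose receptor needs Myd88, also stood far below IgG (chromosome 19, 29925114 to 29960718). It had 21.3, 23.3 and 31 normalised reads with anti-PD-1 and 82.8, 91.2 and 85.7 with IgG, a difference of -1.76 ± 0.22 (adjusted p = 0.529, limma). The groups were more than 2-fold apart in every pairing of libraries. Akr1c18, which encodes an enzyme that inactivates progesterone, had 19.1, 13.2 and 19.5 with anti-PD-1 and 68.5, 54.9 and 54 with IgG. The promoter windows of Serpinb9b and Il33 are shown because these genes lay lowest and carry the comparison with wild type below. They run from 250 bases before to 50 after the annotated start (RefSeq, GRCm38.p6, plus strand for both genes), and Il33 has 2 annotated starts. Capitals mark TATAAA, the letters searched for as the TATA box.
Serpinb9b, chr13:33027164-33027463: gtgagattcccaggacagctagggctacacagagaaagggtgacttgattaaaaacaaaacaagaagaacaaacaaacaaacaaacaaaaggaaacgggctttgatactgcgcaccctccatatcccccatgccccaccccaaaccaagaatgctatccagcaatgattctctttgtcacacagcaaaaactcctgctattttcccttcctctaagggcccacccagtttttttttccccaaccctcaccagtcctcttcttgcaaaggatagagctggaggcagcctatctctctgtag
Il33, first start, chr19:29924863-29925162: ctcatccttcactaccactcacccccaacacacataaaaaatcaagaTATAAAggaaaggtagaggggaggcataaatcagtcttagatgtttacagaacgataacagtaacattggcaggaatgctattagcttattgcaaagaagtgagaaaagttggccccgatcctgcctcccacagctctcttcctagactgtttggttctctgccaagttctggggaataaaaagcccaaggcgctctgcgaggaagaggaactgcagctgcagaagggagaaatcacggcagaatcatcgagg
Il33, second start, chr19:29945540-29945839: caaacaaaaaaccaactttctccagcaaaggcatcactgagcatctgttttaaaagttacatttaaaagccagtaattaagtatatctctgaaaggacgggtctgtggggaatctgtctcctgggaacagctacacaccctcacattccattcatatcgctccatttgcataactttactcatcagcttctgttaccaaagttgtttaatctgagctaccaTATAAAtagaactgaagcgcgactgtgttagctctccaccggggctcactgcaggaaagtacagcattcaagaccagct
The window of Serpinb9b held none of the 3 motifs searched on both strands. In the second Il33 window TATAAA began 29 bases before the start, and in the first 203 bases before it. Of the 12 genes 6 had a window, and 2 of these (Il33 and Crhbp) held TATAAA, which in Crhbp began 30 bases after the start. Of all 32851 windows 13.6% hold it, a share of windows and not of genes. TGANTCA (AP-1) and GAGGAAGT (PU.1) were in 0 of the 6, and in 7.81% and 3.2% of all windows.

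The other genes of this group have varied roles. Fst, which encodes the activin antagonist follistatin, had 46.8, 35.5 and 39.1 normalised reads with anti-PD-1 and 125, 122 and 103 with IgG. Lrrc32, which encodes GARP, the surface anchor of latent TGF-beta, was the most abundant of the 12. Its anti-PD-1 libraries held 531, 689 and 599.8 normalised reads and its IgG libraries 1347, 1349 and 1364, so the IgG libraries were nearly level and no anti-PD-1 library exceeded 689 (-1.16 ± 0.14, adjusted p = 0.529, limma). Eef1a2, an elongation factor of muscle and neurons, had 199.9, 120 and 302 with anti-PD-1 and 687, 705 and 581.8 with IgG. Car2, which encodes a carbonic anhydrase, had 511, 505 and 291 with anti-PD-1 and 969, 978 and 999 with IgG. B3galnt1, a glycosyltransferase of globoside synthesis, had 48.9, 57.9 and 55.2 with anti-PD-1 and 117, 136 and 115 with IgG. The others were Clec1a, a C-type lectin receptor, Sdc2, which encodes a syndecan, Cpe, which encodes a prohormone-processing carboxypeptidase, and Crhbp, which encodes a binding protein of corticotropin-releasing hormone, with differences of -1.08 to -1.55. Over the 12 genes the median difference from the IgG mean was -1.45, -1.66 and -1.42 in replicates 1, 2 and 3, which the choice of the genes fixes in direction, and all 12 still lay below every IgG library after the length and GC trend was removed.

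The 12 genes with the widest gap above IgG were low in level. Crtam, which encodes a receptor of activated CD8 T cells and NK cells, had 35.1, 44.6 and 34.5 normalised reads with anti-PD-1 and 16.9, 17.5 and 11.5 with IgG (1.27 ± 0.27, adjusted p = 0.952, limma). Cavin2, which encodes a coat protein of caveolae, had 23.4, 26.4 and 24.1 with anti-PD-1 and 6.52, 5.84 and 12.2 with IgG. Flt3, the receptor of conventional dendritic cells and their precursors, had 15.9, 15.2 and 33.3 with anti-PD-1 and 9.78, 5.84 and 8.64 with IgG. Camk4, a kinase gene prominent in T cells, had 34, 32.5 and 32.2 with anti-PD-1 and 21.5, 17.5 and 15.8 with IgG. The other 8 were Tmod4, Gp9, Scx, Jakmip1, Lrig1, Ctrl, Ccdc184 and Rdh5, with log2 differences of 0.73 to 1.48. Gp9 encodes a platelet glycoprotein, Scx a tendon transcription factor, Lrig1 a restrainer of receptor tyrosine kinases and Rdh5 a retinol dehydrogenase. No library of either group exceeded 68 normalised reads in any of the 12 genes.

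**Figure D3:**
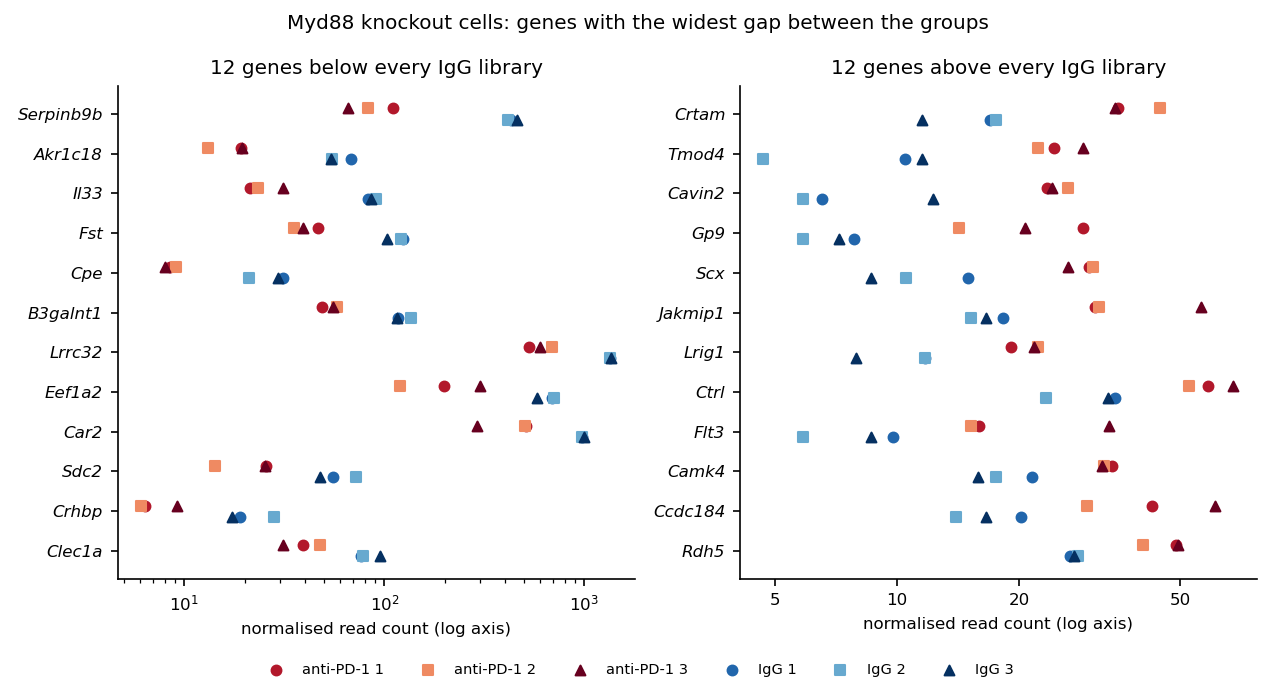
Normalised read counts (log axis) in the 3 anti-PD-1 (red, upper row of each gene) and 3 IgG (blue, lower row) knockout libraries for the 12 genes with the widest gap below IgG (left panel) and the 12 with the widest gap above it (right panel). In the left panel Serpinb9b spans 65.5 to 111 with anti-PD-1 against 415 to 461 with IgG; the genes of the right panel lie at low counts throughout.

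Of 26 T cell markers 0 passed the test, 10 lay above every IgG library, 1 lay below and 15 overlapped. Of all genes 5.87% lay above and 4.69% below. Cd4, Cd28, Cd3d and Trac were among those that overlapped. Cd3d, another CD3 chain, had 356, 157 and 668 normalised reads with anti-PD-1 and 198, 196 and 161 with IgG. Trac, a T cell receptor chain, had 149, 68 and 129 with anti-PD-1 and 87.4, 76 and 70.6 with IgG. Cd3e, which encodes a CD3 chain, had 114, 59.9 and 120 normalised reads with anti-PD-1 and 39.8, 49.1 and 54 with IgG. Zap70, its kinase, had 137, 74.1 and 134 with anti-PD-1 and 55.4, 66.6 and 47.5 with IgG. Cd8a, which some dendritic cells also carry, had 638, 562 and 712 with anti-PD-1 and 434, 457 and 380 with IgG (0.59 ± 0.16). Pdcd1, which encodes PD-1, was close to the lowest levels, at 5.32, 5.07 and 3.45 with anti-PD-1 and 0, 2.34 and 1.44 with IgG. The 1 marker below IgG was Il7r, the interleukin-7 receptor chain, at 4246, 5344 and 2945 with anti-PD-1 and 5455, 5358 and 6040 with IgG. Because Il7r dominates the list, its summed level was 8170 to 8526 with anti-PD-1 and 8449 to 8990 with IgG, while without Il7r it was 3182 to 5225 with anti-PD-1 and 2949 to 3299 with IgG. None of the T cell markers other than Pdcd1 was at 0 in any library.

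Of 12 B cell markers tested 5 lay above every IgG library and 0 below, 7 overlapped, and 0 passed the test. Of all genes 5.87% lay above and 4.69% below. Cd79a, a chain of the B cell receptor, had 29.8, 15.2 and 66.7 normalised reads with anti-PD-1 and 10.4, 5.84 and 13.7 with IgG. Ighm, the immunoglobulin mu chain, had 251, 198 and 313 with anti-PD-1 and 192, 199.8 and 175 with IgG. Without Cd22, the most abundant member, the list summed to 301 to 542 with anti-PD-1 and 252 to 275 with IgG. Of 13 markers of NK and cytotoxic cells 2 lay above every IgG library and 0 below. They were Ifng, which encodes interferon gamma, at 116, 79.2 and 164 with anti-PD-1 and 63.9, 71.3 and 70.6 with IgG, and Il2rb, an interleukin-2 receptor chain, at 657, 834 and 525 with anti-PD-1 and 489, 422 and 513 with IgG. Of the 22 macrophage and monocyte markers 0 lay outside the IgG range in all 3 libraries, and their median differences were 0.1, 0 and 0.11 in replicates 1, 2 and 3. In wild-type cells the T cell list went the other way, with 17 of 26 members called lower and 1 higher (median -0.46, against 0.58 in knockout). There B cell markers had 4 of 12 and NK markers 10 of 13 called lower, and 0 called higher. The wild-type shares over all genes were 6.68% called lower and 7.12% called higher. Of these lists no member's effect differed between the genotypes at an adjusted p below 0.05 in the limma interaction test, the smallest being 0.0672 for Cd8a. The part of lymphocyte content in the other results was not tested.

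The genes of both PD-1 ligands overlapped between the groups. Cd274, which encodes PD-L1, had 9471, 10950 and 6210 normalised reads with anti-PD-1 and 9607, 9933 and 12120 with IgG (-0.28 ± 0.24). Pdcd1lg2, which encodes PD-L2, had 4003, 3383 and 4171 with anti-PD-1 and 3704, 3993 and 3558 with IgG. The costimulatory genes Cd80, Cd86 and Cd40 also overlapped between the groups. Among 18 genes of costimulation and checkpoint ligands 1 lay above and 2 below every IgG library, against 5.87% and 4.69% of all genes, and 0 passed the test. Tnfsf4, which encodes OX40 ligand, was the clearest, at 130, 99.5 and 106 with anti-PD-1 and 201, 195 and 235 with IgG (-0.91 ± 0.18, adjusted p = 0.952, limma). In wild type Tnfsf4 was called lower as well, by a smaller difference of -0.34 (adjusted p = 0.0478). Of 8 genes for Fc receptors and antibody binding 2 lay below IgG, Trim21, a cytosolic antibody receptor, and Fcgr2b, the inhibitory Fc gamma receptor. Fcgr2b had 11940, 11360 and 9232 with anti-PD-1 and 12250, 12350 and 12260 with IgG, a shift of -0.19 ± 0.15. The activating receptors Fcgr1, Fcgr3 and Fcgr4 overlapped.

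Of 17 tolerance and retinoic acid genes 3 lay below every IgG library and 0 above, against 4.69% and 5.87% of all genes, and 0 passed the test. Aldh1a2, the retinoic acid synthesising enzyme of gut-associated dendritic cells, had 3574, 3537 and 2322 normalised reads with anti-PD-1 and 4858, 4558 and 4678 with IgG (-0.61 ± 0.2). Cd200, an inhibitory surface ligand, had 338, 365 and 251 with anti-PD-1 and 608, 457 and 526 with IgG. Ido1, the tryptophan-degrading enzyme, had 45.7, 39.6 and 43.7 with anti-PD-1 and 50.9, 46.7 and 57.6 with IgG. Of 19 genes of migratory and mature dendritic cells 2 lay above and 3 below, and 0 passed the test. Fscn1, which encodes the actin bundler fascin of mature dendritic cells, had 833, 741 and 1390 with anti-PD-1 and 573, 587 and 573 with IgG, while Ccr7, the lymph node homing receptor, had 2074, 1497 and 3111 with anti-PD-1 and 2034, 1886 and 1653 with IgG. Fscn1 was called lower in wild type (-0.64). Among 14 cDC1 markers 2 lay below every IgG library and 0 above, 12 overlapped, and the median log2 difference was 0.012. The one with the smallest p was Clec9a, a receptor for dead cells on cDC1 cells. It had 241, 234 and 202 with anti-PD-1 and 284, 292 and 334 with IgG. Class II presentation genes split by library, with medians of 0.35, -0.28 and 0.64 over 14 genes and 0 outside the IgG range.

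Toll-like receptors and their adaptors, a list that also holds Myd88 and the kinases downstream of it, had 3 of 23 members above and 1 below every IgG library, and 0 passed the test (5.87% of all genes lay above and 4.69% below). Tlr2, a receptor for bacterial lipoproteins, had 947, 955 and 983 normalised reads with anti-PD-1 and 807, 810 and 824 with IgG (0.24 ± 0.12). Unc93b1, which carries Toll-like receptors to endosomes, had 19530, 19170 and 22190 with anti-PD-1 and 17150, 17670 and 16260 with IgG. Tlr12, a receptor of apicomplexan profilin, had 42.5, 36.5 and 56.3 with anti-PD-1 and 65.2, 58.4 and 57.6 with IgG. Inflammatory and NF-kB target genes had 2 of 30 above and 2 below, shares near those of all genes. Il1a, which encodes interleukin-1 alpha, had 1989, 1784 and 1410 with anti-PD-1 and 1998, 2160 and 2038 with IgG. Il1b, Il6 and Tnf overlapped, with differences of 0.22 ± 0.17, 0.12 ± 0.14 and 0.18 ± 0.23. Il10 and Ifnb1 had at most 6.89 normalised reads in any of the 6 libraries.

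Interferon-gamma response genes had 5 of 24 members below every IgG library and 1 above, against 4.69% and 5.87% of all genes, and 0 passed the test. Nos2, which encodes inducible nitric oxide synthase, had 61.7, 72.1 and 67.8 normalised reads with anti-PD-1 and 116, 106 and 107 with IgG (-0.7 ± 0.17, adjusted p = 0.952, limma). In wild type Nos2 was called lower too, by -0.39 (adjusted p = 0.0292, limma). Cxcl10, a chemokine that draws T cells, had 29.8, 38.6 and 24.1 with anti-PD-1 and 39.8, 44.4 and 38.9 with IgG. Tap1, the peptide transporter of class I presentation, was the member above, at 8620, 8507 and 10180 with anti-PD-1 and 7750, 7941 and 7382 with IgG. Type I interferon response genes had 1 of 39 above and 1 below, shares under those of all genes. Rtp4, an interferon-induced chaperone, was the one below, at 601, 484 and 524 with anti-PD-1 and 697, 719 and 686 with IgG. Isg15 and Irf7 overlapped. Cgas, which encodes a sensor of cytosolic DNA, followed the split between libraries, at 318, 626 and 142.5 with anti-PD-1 and 427, 408 and 539 with IgG.

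Genes of the cell cycle had 5 of 30 members above every IgG library and 0 below, against 5.87% and 4.69% of all genes, and 0 passed the test. Mki67, a proliferation marker, had 5341, 7175 and 5722 normalised reads with anti-PD-1 and 4382, 4431 and 4934 with IgG (0.4 ± 0.16). Cenpe, a kinetochore motor, had 1177, 1533 and 1378 with anti-PD-1 and 870, 857 and 1089 with IgG. Among 19 immediate early and dissociation genes 3 lay above and 2 below. Nr4a1, which is induced by antigen receptor and stress signals, had 213, 266 and 234 with anti-PD-1 and 146, 131 and 153 with IgG (0.72 ± 0.16), and in wild type it was called lower by -0.56 (adjusted p = 0.00348, limma). Atf3, a stress-response repressor, had 15090, 12570 and 13390 with anti-PD-1 and 18480, 18900 and 17410 with IgG. Hypoxia response genes had 4 of 15 above and 1 below, led by P4ha2, a collagen prolyl hydroxylase, at 213, 213 and 214 with anti-PD-1 and 155, 175 and 166 with IgG. Egln3, an oxygen sensor, had 569, 717 and 417 with anti-PD-1 and 373, 370 and 387 with IgG. Glycolysis genes had 3 of 17 above and 0 below, and in none of these lists did a member pass the test.

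**Figure D4:**
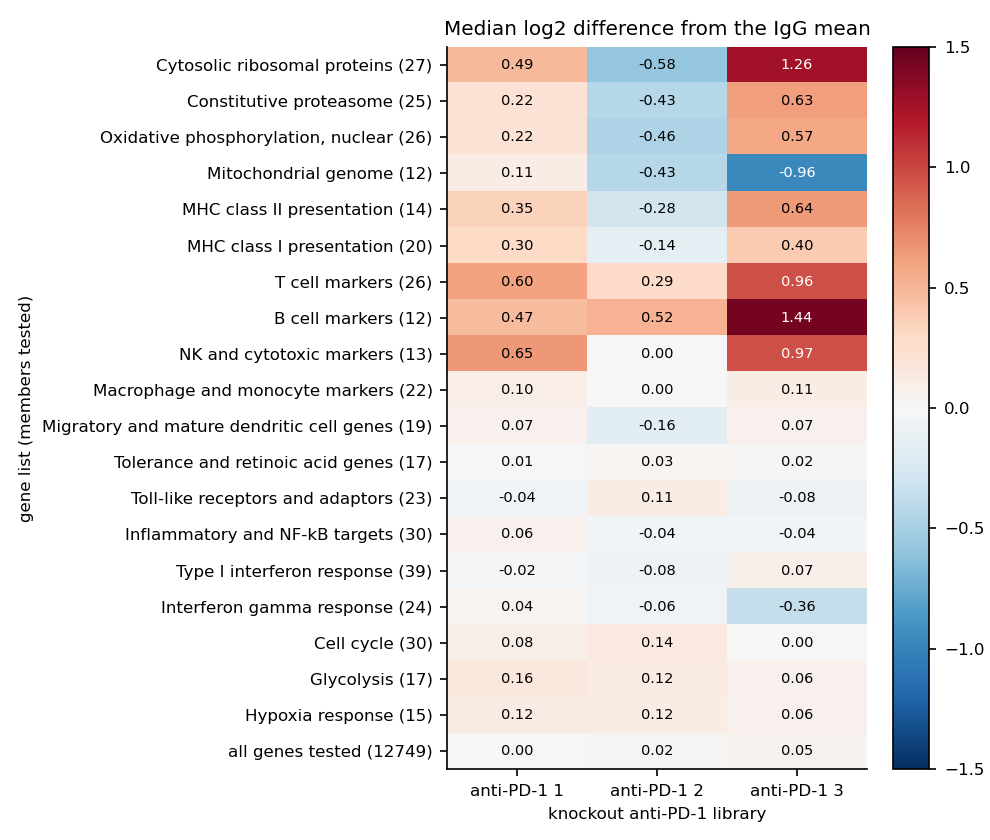
Median log2 difference from the knockout IgG mean over the tested members of each list (rows, number of members in brackets) in the 3 anti-PD-1 libraries (columns), with all genes in the last row. Ribosomal, proteasome and oxidative phosphorylation genes are above IgG in replicates 1 and 3 and below it in replicate 2, whereas T and B cell markers are above it in all 3.

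The difference between the genotypes was tested directly in an interaction over 12 libraries. It called 1 gene of 12749 (0.00784%), Serpinb9b, whose anti-PD-1 effect was lower in knockout than in wild type by -2.24 ± 0.25 on the log2 scale (adjusted p = 0.0339, limma). Wild-type cells had 114, 105 and 91.4 normalised reads of Serpinb9b with anti-PD-1 and 118, 115 and 103 with IgG. The knockout anti-PD-1 libraries thus lay near both wild-type groups, and the knockout IgG libraries lay above them. The adjusted p missed 0.05 when any 1 IgG library or wild-type library was left out (0.0942 to 0.199), and passed it when any 1 knockout anti-PD-1 library was left out (0.0033 to 0.00628). The same pattern of levels was seen in Il33, which averaged 25.2 ± 5.1 in knockout anti-PD-1 cells and 86.5 ± 4.2 in knockout IgG cells, beside 25.1 ± 3.8 with anti-PD-1 and 25.2 ± 3.4 with IgG in wild type (SD, n = 3 each). Its interaction was -1.75 ± 0.28 and missed the threshold (adjusted p = 0.0672, limma). Lrrc32 averaged 607 ± 79 in knockout anti-PD-1 cells and 1353 ± 9.3 in knockout IgG cells, beside 505 ± 41 with anti-PD-1 and 578 ± 14 with IgG in wild type. Of the 12 genes lower in knockout, 1 was called lower in wild type (Car2) and 0 higher. Of the 12 higher in knockout, 3 were called lower in wild type (Crtam, Jakmip1 and Ccdc184) and 0 higher. All 12 had negative wild-type values with a median of -0.35. The wild-type test called 6.68% of all genes lower and 7.12% higher.

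A second comparison of anti-PD-1 in knockout cells, on other libraries, came from the groups given LGG, added after the data were seen. No antibody dose is recorded for LGG alone, so this contrast also sets antibody against none recorded. Anti-PD-1 with LGG against LGG alone gave 0 calls of 12749 (0%), with 620 genes at an unadjusted p below 0.05 (4.86%). LGG replicate 2 stood apart, and without it 1819 genes were called (14.3%), 982 higher (7.7%) and 837 lower (6.57%). The 12 genes below IgG did not repeat there. In this contrast 11 of 12 had positive values in both fits, and without LGG replicate 2 the genes called higher numbered 5, Il33 (0.64), Fst (0.63), Lrrc32 (0.38), Eef1a2 (0.66) and Car2 (0.26), and 0 were called lower. Il33 averaged 166 ± 7.1 normalised reads with anti-PD-1 and LGG and 96.5 ± 17 with LGG alone in knockout cells (SD, n = 3 each). Serpinb9b averaged 295 and 274 there, a difference of 0.05 without LGG replicate 2 (adjusted p = 0.823, limma). Of the 12 genes above IgG, 4 were called lower in this contrast without LGG replicate 2 (Cavin2, Lrig1, Camk4 and Ccdc184) and 0 higher. Whether the effect of anti-PD-1 differed between knockout cells with and without LGG was not tested.

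**Figure D5:**
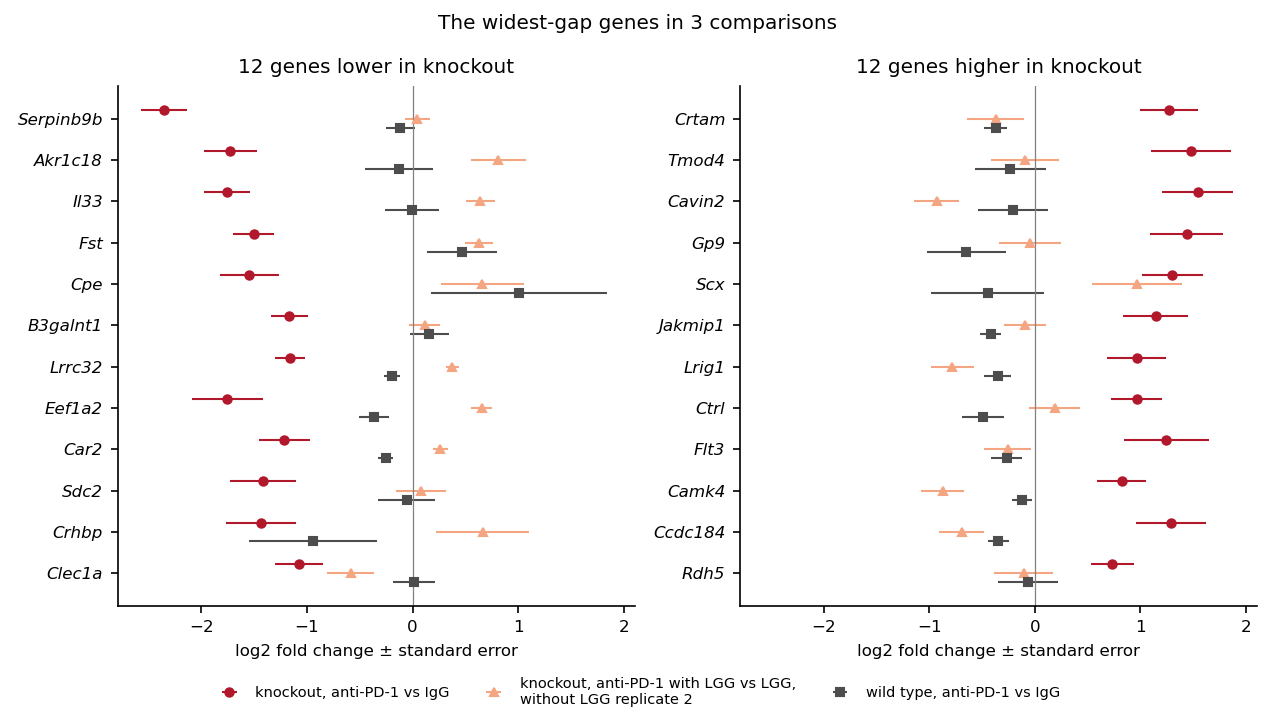
Log2 fold changes with standard errors (horizontal axis) of the 12 genes lower (left) and 12 higher (right) in knockout anti-PD-1 cells, for knockout anti-PD-1 against IgG (red circles), knockout anti-PD-1 with LGG against LGG without LGG replicate 2 (orange triangles) and wild-type anti-PD-1 against IgG (grey squares), with 3 libraries a group except 2 for LGG. Only the red values were used to choose the genes; Serpinb9b is at -2.35 there, at 0.05 with LGG and at -0.12 in wild type.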

How the data were processed

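The authors deposited 1 table of normalised signal: read counts per gene divided by a factor for each library. STAR 2.4.0, HTSeq 0.6.1, DESeq2 (no version given) and the build mm10 are named in the submitters' processing notes; strand and multi-mapping settings are not given in the sources used here. Dividing each library by its smallest step returned whole reads for 100% of values (tolerance 0.001). The test used log2(value + 1) of the deposited signal for the 12749 of 12767 genes with a mean of at least 10, and fold changes are on that scale, which understates those of low genes. limma 3.58.1 (trend, robust) in R 4.3.3 was fitted to only the libraries compared, because the knockout anti-PD-1 libraries spread more than the other groups. Tests were two-sided with Benjamini-Hochberg adjustment over all genes and a threshold of 0.05. The script was tested on simulated data. Errors after fold changes are standard errors and after means standard deviations.

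Named genes were, passing over predicted genes and receptor segments: the 12 with the widest gap in each direction with at least 20 normalised reads in the higher group, the 10 of widest range among the anti-PD-1 libraries with a mean of at least 100, up to 4 members of each list with the smallest p, and a fixed set. Of the fixed set, Xist was not analysed here. Genes outside the rule, such as Serpinb9, were named after their values were seen. The members, the gene lists and the comparisons were chosen with earlier results of these data known. Exon lengths, GC content and coordinates come from GENCODE M21 (GRCm38), which matched 12759 genes, with both properties for 12741 of the tested ones, and promoters from RefSeq (GRCm38.p6). Alternatives were a pseudocount of 8, no filter, TMM, all 24 libraries, array weights, a block for the replicate number, tests of the whole reads with edgeR 4.0.16 and with DESeq2 1.42.0, each library left out, and, chosen after seeing the data, removal of a length and GC trend.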

Additional observations from a re-analysis of the deposited data

Results flagged for a closer look

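Serpinb9b was the 1 gene whose anti-PD-1 effect differed between the genotypes in the limma interaction test, by -2.24 on the log2 scale (adjusted p = 0.0339), with all 3 knockout anti-PD-1 libraries below all 3 knockout IgG libraries. The adjusted p was 0.0632 with the replicate block and 0.0942 to 0.199 with any 1 wild-type or knockout IgG library left out. In limma it was 0.025 with a pseudocount of 8, 0.0392 with TMM and 0.00947 with the length and GC trend removed. Other limma fits gave 9.78e-06 with all 24 libraries, 9.9e-06 with array weights and 0.00103 with 1 weight per group. The adjusted p was 0.0384 with edgeR and 7.84e-14 with DESeq2. Groups of 3 libraries are too small for a check of single outlying libraries.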

How the results depend on the processing

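In the knockout comparison the count of called genes was 0 with a pseudocount of 8, no filter, TMM scaling, edgeR, the length and GC trend removed and each library left out (0 to 0). It was 229 with all 24 libraries in 1 fit (222 of them without overlap), 141 with array weights, 4 with 1 weight per group over all 24 libraries and 17 with DESeq2. In that order these calls held 9, 12, 3 and 8 of the 12 genes with the widest gap below IgG. They held 10, 3, 0 and 0 of the 12 with the widest gap above it. Both sets were chosen by their gap in the same libraries, so these counts are no separate test. The array weights were 3.36, 0.134 and 0.169 for anti-PD-1 replicates 1, 2 and 3, so that fit rested largely on replicate 1. The count of genes without overlap was 1347 to 1492 under the alternatives on all 6 libraries, and 1761 to 7333 with 1 library left out; 456 genes higher and 257 lower kept their gap after the length and GC trend was removed. The all-gene median difference was 0.018 as deposited and 0.003 with TMM. For wild type the count of 1760 became 4 with all 24 libraries, 3682 with array weights and 279 to 3233 with 1 library left out. The interaction count of 1 became 242 with all 24 libraries, 4905 with array weights, 30 with 1 weight per group, 3 with edgeR, 290 with DESeq2, 38 with the length and GC trend removed, and 0 to 4403 with 1 library left out; it was 4403 without knockout anti-PD-1 replicate 2. The cause of these changes was not tested. No fold change of a named gene turned its direction among the 24 genes chosen by gap, but that choice fixes the direction under most of these alternatives.

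With the replicate number as a block, 0 genes were called in knockout, 2611 in wild type and 0 in the interaction, where Serpinb9b had an adjusted p of 0.0632. In knockout the numbers gave no sign of pairing. Deviations of same-numbered anti-PD-1 and IgG libraries correlated at 0.0828, -0.346 and -0.428 across genes, and no anti-PD-1 library correlated best with its own number. Pairing is not excluded, since deviations of 3 libraries from their mean are tied to each other, and wild type was not examined.

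At 27762574 to 49272593 reads a gene near 10 normalised reads rests on few reads.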
